A study of Mus musculus with 35 samples.

Results

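Npsr1 encodes the neuropeptide S receptor, a receptor with 7 membrane-spanning helices on the surface of neurons. It is 1 gene of the 52636 that were counted, and it was chosen by its steep difference in level between both portions of the amygdala and for its role in arousal and anxiety. The levels in the 2 portions are therefore given as a description, without a test. Cells of the anterior or posterior basolateral amygdala had been cut from eosin- and methylene blue-stained sections by laser capture microdissection, and an RNA-seq library was made for each portion. The 35 libraries came from 19 female mice, 8 of the inbred strain C57BL/6J and 11 of B6D2F1N, a first-generation hybrid of C57BL/6 and DBA/2 parents. Of these mice, 9 lived in standard housing and 10 in an enriched environment, which meant access to a playground for 1 hour a day from postnatal day 77. All mice were food-restricted, were trained on touchscreens from postnatal day 70 and passed a cognitive judgment bias test of 5 days before the tissue was taken. The extremes of that test, 4 optimists and 5 pessimists, were also labelled.

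The groups held 4 C57BL/6J standard, 2 C57BL/6J enriched, 5 B6D2F1N standard and 5 B6D2F1N enriched libraries of the anterior amygdala, and 4, 4, 5 and 6 of the posterior amygdala in the same order. Each library is 1 portion of 1 mouse, and 16 mice gave both. A library is a mixture of captured neurons and other cells, so that fewer cells of a type and less RNA per cell cannot be told apart. The depth ran from 16938534 to 27352623 gene counts per library. Levels are given as CPM (a gene's counts scaled to a common library size, with TMM factors) and as mean ± SD over mice, and portions are named as in the labels. The study's methods list the bregma coordinates of the posterior portion in front of those of the anterior one, opposite to their anatomical order, and the levels of 2 marker genes that bear on the names are given with the results. In both libraries of B6D2F1N standard mouse 1, 0 counts of Xist, the RNA that silences an X chromosome in females, were found, against 1191 to 4831 counts in the other 33 libraries. The genes of the Y chromosome examined (Ddx3y, Eif2s3y, Kdm5d and Uty) summed to 0 counts in that mouse and to at most 1 count elsewhere.

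Neuropeptide S is released by small groups of brainstem neurons, among them cells beside the locus coeruleus, and promotes wakefulness while lowering anxiety-like behavior and speeding the extinction of fear. Its receptor couples to the G proteins Gq and Gs, through which phospholipase C releases calcium from internal stores and adenylyl cyclase raises cyclic AMP. In rodents, the receptor is known from the amygdala, the neighbouring endopiriform nucleus, the thalamus and the cortex. The amygdala assigns emotional value to cues, and its basolateral nucleus consists mostly of glutamatergic projection neurons.

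Npsr1 (ENSMUSG00000043659) lies on the forward strand of chromosome 9 of GRCm38, from 24097996 to 24316398. Its longest coding transcript in GENCODE M21, Npsr1-201, has 10 exons and 1113 coding bases, and exon 10 alone measures 2676 of its 3791 exonic bases. A pair of annotated genes overlaps it on the opposite strand. Gm15600, an antisense RNA at 24296139 to 24300257, shares 0 exonic bases with Npsr1, whereas Gm47674, a locus of uncertain coding status (TEC) at 24284873 to 24287841, covers the coding exon 5 whole. The strand setting of the read counting is not given in the sources used here, and without strand the reads of this exon of 94 bases cannot be assigned to either gene. The sequence of the exon (chr9:24286757-24286850, forward strand, GRCm38, from the reference genome) is shown because it is the stretch of Npsr1 that both genes share.
Npsr1 exon 5: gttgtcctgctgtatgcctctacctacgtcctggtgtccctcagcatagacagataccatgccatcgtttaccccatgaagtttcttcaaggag

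Npsr1 was a well-expressed gene in the anterior amygdala and a weakly expressed one in the posterior amygdala. Over the 16 anterior libraries, its level was 115 ± 67.9 CPM, with a lowest value of 16.3, a median of 101 and a highest of 259 CPM, from 319 to 4543 counts. Over the 19 posterior libraries, it was 5.99 ± 5.23 CPM, with a lowest value of 1.35, a median of 3.98 and a highest of 20.8 CPM, from 30 to 379 counts. Every library thus held counts of the gene, and both portions varied widely among mice, by 15.9-fold between the highest and the lowest anterior library.

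In standard housing, the 4 anterior libraries of C57BL/6J mice stood at 79.3, 132, 141 and 225 CPM (144 ± 60.3) and the 5 of B6D2F1N mice at 36.6, 97.4, 133, 149 and 196 CPM (122 ± 59.6). In the enriched environment, the 2 C57BL/6J libraries had 68.5 and 105 CPM (87.0 ± 26.2), and those of B6D2F1N mice had 16.3, 46.4, 67.9, 87.2 and 259 CPM (95.3 ± 95.1). All 4 groups overlapped, and the lowest and the highest anterior value both came from B6D2F1N mice of the enriched environment.

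On the posterior side, C57BL/6J mice in standard housing had 2.44, 2.95, 4.74 and 9.20 CPM (4.83 ± 3.07) and those in the enriched environment 1.35, 1.38, 1.64 and 2.45 CPM (1.71 ± 0.516). B6D2F1N mice had 2.14, 3.98, 7.75, 12.0 and 13.2 CPM in standard housing (7.81 ± 4.84) and 1.39, 2.33, 6.25, 7.63, 10.1 and 20.8 CPM in the enriched environment (8.09 ± 7.05). Ordered by mean level, the groups ran from C57BL/6J standard over B6D2F1N standard and B6D2F1N enriched to C57BL/6J enriched in the anterior amygdala, then from B6D2F1N enriched over B6D2F1N standard and C57BL/6J standard to C57BL/6J enriched in the posterior amygdala. Neighbours of this order within a portion overlapped in range, while C57BL/6J enriched mice, last among the anterior groups, lay wholly above B6D2F1N enriched mice, first among the posterior ones.

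**Figure D1:**
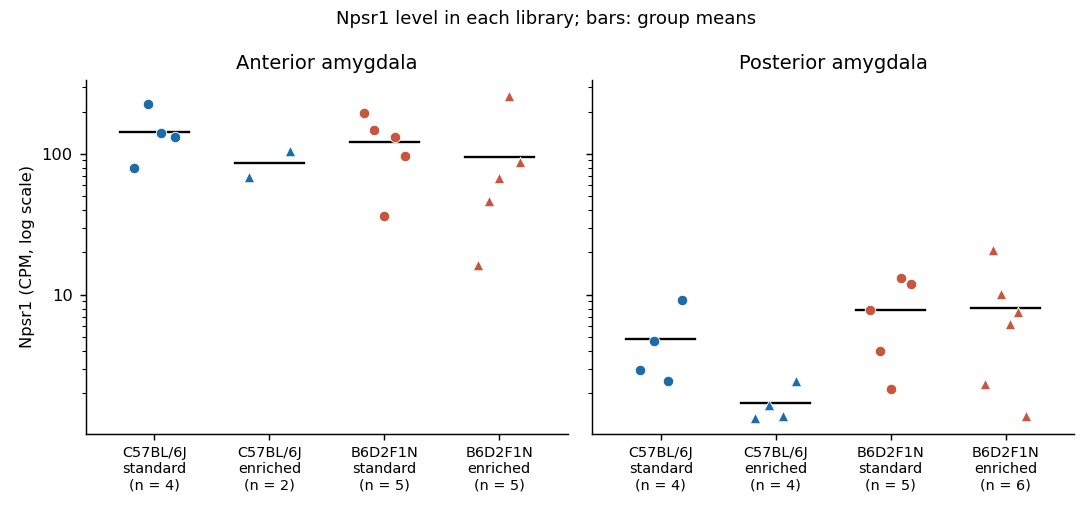
Npsr1 in CPM on a log axis in each library, with anterior groups on the left and posterior groups on the right; circles are standard housing, triangles the enriched environment, blue C57BL/6J, red B6D2F1N, and black bars group means. The anterior means lie between 87.0 and 144 CPM and the posterior ones between 1.71 and 8.09 CPM.

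Of the 16 mice with both portions, 16 had less Npsr1 in the posterior amygdala. The anterior level was 2.22-fold to 76.6-fold the posterior one in the same mouse. In the 6 C57BL/6J mice, the ratio ran from 14.4-fold to 76.6-fold with a median of 49.1-fold, and the mean log2 difference (posterior minus anterior) was -5.32 ± 0.877. In the 10 B6D2F1N mice, it ran from 2.22-fold to 62.6-fold with a median of 13.6-fold and a mean log2 difference of -3.84 ± 1.49. The portions did not overlap in C57BL/6J mice, whose highest posterior value was 9.20 CPM and whose lowest anterior value was 68.5 CPM. They overlapped in B6D2F1N mice, because the anterior library of enriched mouse 1 had 16.3 CPM and the posterior library of enriched mouse 2 had 20.8 CPM.

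The smallest ratio belonged to B6D2F1N enriched mouse 2, with 46.4 CPM in its anterior and 20.8 CPM in its posterior library. The largest belonged to C57BL/6J enriched mouse 3, with 105 and 1.38 CPM. In edgeR fits with the mouse as a block, the log2 fold change was -5.31 with a standard error of 0.289 in C57BL/6J and -3.84 with a standard error of 0.394 in B6D2F1N mice, and -3.71 in B6D2F1N without the mouse that lacked Xist. Only changes past the threshold used here, an adjusted p of at most 0.05, are called below. Of all genes tested in C57BL/6J mice, 2.1% were called lower and 1.54% higher in the posterior amygdala, and in B6D2F1N mice 2.37% and 1.62%. Nothing is read from this for Npsr1, which this contrast chose.

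**Figure D2:**
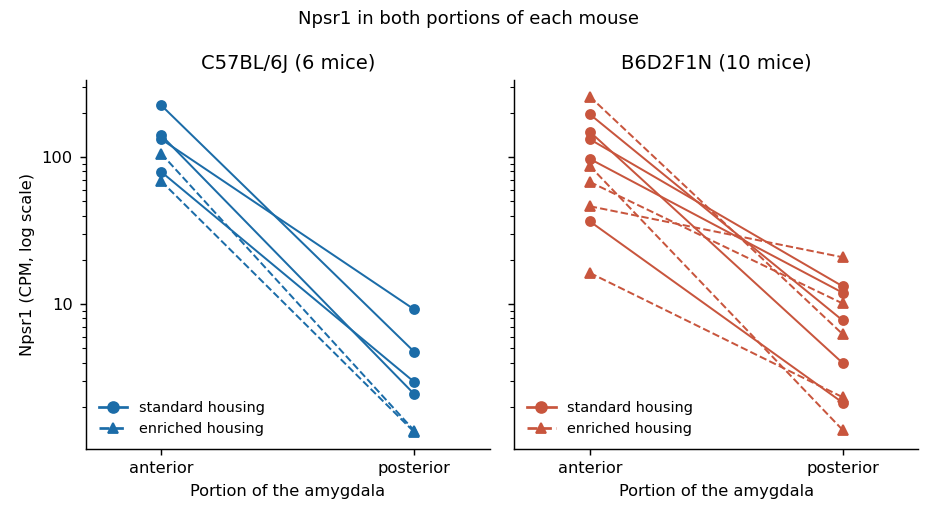
Npsr1 in CPM on a log axis in the anterior and posterior amygdala, with a line for each of the 6 C57BL/6J and 10 B6D2F1N mice that had both libraries (solid lines and circles for standard housing, dashed lines and triangles for the enriched environment). Every line falls towards the posterior side, least in the B6D2F1N mouse that goes from 46.4 to 20.8 CPM.

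Markers of some other cell types differed between the portions. Of all genes, 2.1% (C57BL/6J) and 2.37% (B6D2F1N) were called lower in the posterior amygdala and 1.54% and 1.62% higher. All 3 markers of choroid plexus (Ttr, Folr1 and Kl), the tissue that makes cerebrospinal fluid, were higher in the posterior amygdala of both strains, and their summed level was 3.62 to 929 CPM in anterior and 115 to 14171 CPM in posterior libraries. Each of them had counts in all 19 posterior libraries. Of 3 markers of ependymal cells, which line the ventricles, 2 were higher in both strains (median log2 fold change of the list 4.27 and 6.22), with sums of 0 to 20.7 CPM in anterior and 3.11 to 133 CPM in posterior libraries. Of 4 markers of meningeal fibroblasts, 1 was higher in both strains, and their sum was 28.4 to 70.7 CPM (median 47.9) in anterior and 44.2 to 1796 CPM (median 737) in posterior libraries. The anterior library with 929 CPM of choroid plexus markers was that of B6D2F1N enriched mouse 1, which also had the lowest anterior level of Npsr1. Oligodendrocyte markers summed to 30784 CPM in the same library, the highest anterior value, against an anterior median of 8555 CPM. Of the 5 markers of excitatory neurons, 3 were lower in the posterior amygdala of both strains (Slc17a7, Neurod6 and Tbr1), and the list summed to 1768 to 4319 CPM in anterior and 933 to 5365 CPM in posterior libraries. The call of Neurod6 was lost in 6 of 13 alternative fits in B6D2F1N mice, those without standard mouse 1 or 4, without enriched mouse 1, 3 or 4, and without the pairing of the portions (edgeR adjusted p = 0.058 to 0.0784), and in 1 of 9 in C57BL/6J mice, without the pairing (adjusted p = 0.0551). Slc17a7, the vesicular glutamate transporter of cortical-type neurons, had a log2 fold change of -1.22 in C57BL/6J (edgeR adjusted p = 0.00352) and -1.32 in B6D2F1N mice (adjusted p = 0.00334). Of 4 astrocyte markers, 2 were higher in the posterior amygdala of C57BL/6J and 1 in that of B6D2F1N mice, of 6 markers of inhibitory neurons 2 and 1 were lower, and the 5 oligodendrocyte markers did not pass in either strain (median log2 fold change 0.20 and 0.08). The 4 markers of microglia, 3 of endothelial cells, 2 of intercalated neurons and 3 of central amygdala neurons did not pass in either strain. Of 5 striatal markers, 1 was lower in C57BL/6J and 1 higher in B6D2F1N mice. The part of these cell types in the difference of Npsr1 was not tested.

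Rspo2 and Ppp1r1b are known as markers of the neurons of the anterior and the posterior basolateral amygdala, respectively, and served to check the names of the portions. Rspo2, a secreted activator of Wnt signaling, fell from 190 ± 87.0 CPM (anterior) to 21.9 ± 14.3 CPM (posterior) (log2 fold change -2.59 in C57BL/6J and -3.63 in B6D2F1N mice, edgeR adjusted p = 1.11e-06 and 0.000839). Ppp1r1b, which encodes the phosphatase inhibitor DARPP-32, stood at 33.6 ± 21.1 and 42.2 ± 35.9 CPM and did not pass the test in either strain (adjusted p = 0.931 and 0.708). The Rspo2 values thus run with the label of the anterior portion, and those of Ppp1r1b do not separate the portions. The highest Ppp1r1b values, 146 and 102 CPM, came from the posterior libraries of B6D2F1N standard mice 4 and 5. There the 5 markers of striatal neurons (Drd1, Drd2, Adora2a, Rgs9 and Tac1) summed to 630 and 324 CPM, against a posterior median of 59.0. Rspo2 stood at 0.0417 and 7.62 CPM and Npsr1 at 13.2 and 12.0 CPM in these libraries. Striatal markers also summed to 325 CPM in the posterior library of C57BL/6J enriched mouse 4 and to 231 CPM in that of C57BL/6J standard mouse 3. In those, Ppp1r1b stood at 42.6 and 84.5 CPM and Npsr1 at 2.45 and 2.44 CPM. The part of striatal neurons in these values was not tested.

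The claustrum and the endopiriform nucleus border the basolateral amygdala, and 6 of their marker genes were examined. In both strains, 1 of the 6 passed the test, Oprk1, the receptor for dynorphin, which fell from 139 ± 73.9 to 18.4 ± 16.7 CPM. The remaining ones were Nr4a2 (18.8 CPM anterior, 15.1 CPM posterior), Gnb4 (27.3 and 36.6), Ntng2 (1.77 and 0.756), Lxn (78.2 and 78.6) and Synpr (786 and 889 CPM). The summed level of the 6 genes was 456 to 1957 CPM (anterior) and 363 to 1725 CPM (posterior).

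Compared with other receptors for peptides, Npsr1 changed its place between the portions. Per kilobase of exon, so that genes of different length can be compared, Npsr1 stood at 29.1 CPM per kb in the anterior amygdala and ranked 5 among 42 peptide receptor genes, whose median was 1.46 CPM per kb. On the posterior side it stood at 1.52 CPM per kb and ranked 23, with a median of 1.91 CPM per kb. Its nearest neighbours in anterior level were the neurotensin receptor Ntsr2 (27.9 CPM per kb), the nociceptin receptor Oprl1 (32.3) and the neuropeptide Y receptor Npy1r (23.0). These held 29.1, 35.0 and 16.9 CPM per kb in the posterior amygdala, and none of them passed the test between portions in either strain.

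**Figure D3:**
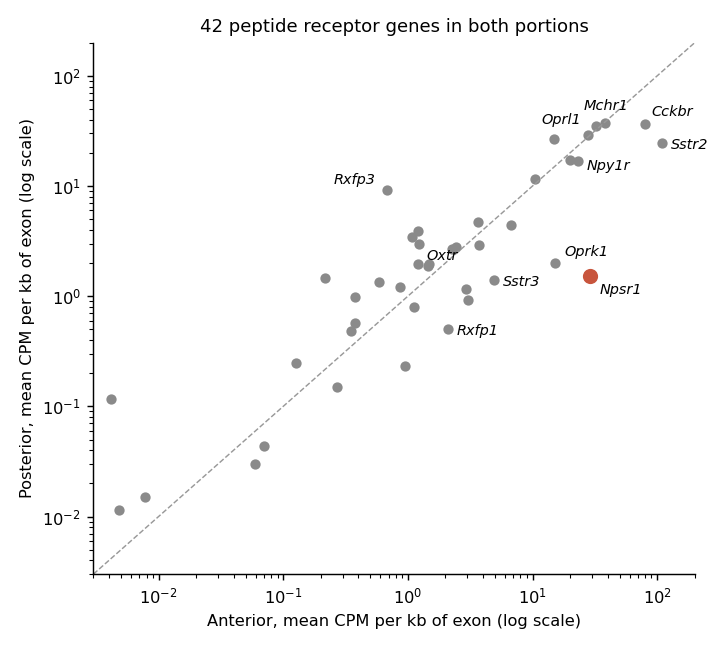
Mean level of 42 peptide receptor genes in CPM per kilobase of exon, anterior on the horizontal and posterior on the vertical axis, both logarithmic; each point is a gene, the dashed line marks equal levels and Npsr1 is red. Npsr1, at 29.1 and 1.52 CPM per kb, lies far below the line, as does Oprk1 at 15.2 and 2.01.

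Of the 36 other neuropeptide receptors, 35 could be tested in C57BL/6J and 36 in B6D2F1N mice. In each strain 7 were lower and 3 higher in the posterior amygdala. The shares of all genes called lower were 2.1% in C57BL/6J and 2.37% in B6D2F1N mice, and those called higher 1.54% and 1.62%. The median log2 fold change of the receptors was 0.37 and 0.18, against 0.01 and 0.15 over all genes. Lower in both strains were Oprk1 (log2 fold change -4.35 in C57BL/6J and -2.83 in B6D2F1N, edgeR adjusted p = 2.13e-09 and 0.005), the somatostatin receptors Sstr2 (-2.24 and -2.02, adjusted p = 8.38e-07 and 5.67e-05) and Sstr3 (-2.06 and -2.22), the relaxin receptor Rxfp1 (-3.02 and -2.60) and the cholecystokinin receptor Cckbr (-0.98 and -1.14). The VIP receptor Vipr1 was also lower in both (-1.08 and -1.39, edgeR adjusted p = 0.0403 and 0.0209), a call that was lost in 6 of 9 alternative fits in C57BL/6J and in 2 of 13 in B6D2F1N mice, and those of Sstr3 and Cckbr in C57BL/6J mice were each lost in 1 of 9. Somatostatin and relaxin-family peptides act through these receptors as local and long-range modulators of the forebrain. Rxfp3, the receptor of relaxin-3, was higher in the posterior amygdala of both strains, at 39.6 ± 23.5 against 2.92 ± 2.04 CPM (log2 fold change 4.71 and 3.33, adjusted p = 1.44e-06 and 0.000145). Receptors for peptides were thus called in both directions, and most did not pass the test.

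The receptors of the vasopressin family are the relatives of NPSR1 by sequence. Avpr1a, Avpr1b and Avpr2, the vasopressin receptors, had means of at most 1.28 CPM in either portion, and Gnrhr, the receptor of gonadotropin-releasing hormone, had 0.0134 and 0.373 CPM. Oxtr, the oxytocin receptor, had 5.86 ± 3.48 CPM in anterior and 14.2 ± 13.0 CPM in posterior libraries. From anterior to posterior it rose in C57BL/6J mice (log2 fold change 2.27, edgeR adjusted p = 0.0063) and had a log2 fold change of 0.58 in B6D2F1N mice (adjusted p = 0.58). It was the 1 relative of 3 tested that passed in C57BL/6J mice, and the adjusted p of the 5 tested in B6D2F1N mice ran from 0.286 to 0.78.

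The gene of the ligand, Nps, was counted in 1 of 16 anterior libraries, with 9 reads, and in 1 of 19 posterior libraries, with 16 reads. The cells that make the peptide lie in the brainstem, outside the amygdala. A library with 0 counts of Nps allows up to 3 counts at its depth, a limit that covers counting error only.

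Of 24 listed genes of signaling paths known for the receptor, 6 were lower in the posterior amygdala of C57BL/6J mice and 18 did not pass. In B6D2F1N mice 5 were lower, 1 was higher and 18 did not pass. Over all genes, 2.1% (C57BL/6J) and 2.37% (B6D2F1N) were called lower and 1.54% and 1.62% higher. The median log2 fold change of the list was -0.21 and -0.31, against 0.01 and 0.15 over all genes. Whether these genes act downstream of Npsr1 here was not tested. Plcb1, a phospholipase C of the Gq branch, went from 163 ± 31.5 to 88.3 ± 20.5 CPM (log2 fold change -0.93 and -0.88, adjusted p = 0.000888 and 0.00108). Itpr1, the calcium channel that opens downstream of it, went from 284 ± 51.7 to 133 ± 56.4 CPM (-1.37 and -1.11). Prkcb, a protein kinase C activated by the same branch, went from 541 ± 139 to 214 ± 73.7 CPM (-1.30 and -1.46). On the cyclic AMP branch, the adenylyl cyclases Adcy1 (436 to 183 CPM, log2 fold change -1.41 and -1.42) and Adcy2 (139 to 69.7 CPM, -1.09 and -1.06) fell in both strains. Plcb4 passed the test in C57BL/6J mice (-0.79, adjusted p = 0.0158, against -0.30, adjusted p = 0.665, in B6D2F1N), and Adcy8 in B6D2F1N mice (1.12, adjusted p = 0.00723, against 1.05, adjusted p = 0.322, in C57BL/6J), and neither difference between the strains was tested. The call of Plcb4 was lost in 2 of 9 alternative fits, without C57BL/6J enriched mouse 1 or standard mouse 1 (edgeR adjusted p = 0.0545 and 0.0705), and that of Adcy8 in 1 of 13, without the pairing of the portions (adjusted p = 0.0661).

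The opposite-strand gene Gm47674 had counts in 13 of 16 anterior libraries (mean 1.28 CPM, at most 70 reads) and in 4 of 19 posterior libraries (mean 0.0393 CPM, at most 13 reads), so that its counts lay on the same side as those of Npsr1. Outside the shared exon, Gm47674 lies over introns of Npsr1. Without strand, its reads cannot be told from those of unspliced Npsr1 RNA. Gm15600 had counts in 4 and 6 libraries, respectively, with at most 8 reads. Set against the 319 to 4543 anterior counts of Npsr1, the counts on both neighbours were few.

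Strain differences of Npsr1 were tested within each housing and portion, a comparison that did not choose the gene. In standard housing, the log2 fold change (B6D2F1N minus C57BL/6J) was -0.24 with a standard error of 0.367 in the anterior amygdala (edgeR adjusted p = 0.94) and 0.71 with a standard error of 0.551 in the posterior amygdala (adjusted p = 0.761). The posterior value ran from 0.43 without B6D2F1N standard mouse 4 to 1.24 without C57BL/6J standard mouse 4. In the enriched environment, it was 0.15 with a standard error of 0.726 in the anterior amygdala (adjusted p = 1). The posterior value of the enriched environment was larger, 2.24 with a standard error of 0.654, between means of 1.71 CPM (4 C57BL/6J mice) and 8.09 CPM (6 B6D2F1N mice). Its unadjusted p was 0.00348 and its adjusted p 0.287 in edgeR, whereas DESeq2 gave the same log2 fold change of 2.24 with an adjusted p of 0.0192.

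That comparison thus passed the threshold with DESeq2 and missed it with edgeR. The groups overlapped, since 2 B6D2F1N libraries (1.39 and 2.33 CPM) lay within the C57BL/6J range of 1.35 to 2.45 CPM, and an exact two-sided permutation test of the log2 CPM gave p = 0.0571, or 0.286 after adjustment over 10 comparisons. Leaving out 1 mouse in turn moved the log2 fold change between 1.70 and 2.47 and the edgeR adjusted p between 0.126 and 0.587. Over all genes, the strain comparisons called 0.37% (standard anterior), 0.373% (standard posterior), 0.0639% (enriched anterior) and 0.394% (enriched posterior) of the genes in edgeR, or 90, 94, 15 and 101 genes. DESeq2 called 257, 392, 137 and 342 genes in the same order, so that the background of its call of Npsr1 was 1.33%. Marker sums separated the same groups, with oligodendrocyte markers at 17399 to 27093 CPM in C57BL/6J and 6707 to 16077 CPM in B6D2F1N enriched posterior libraries, without overlap. Choroid plexus markers summed to 115 to 1315 CPM and to 1115 to 14171 CPM there. The part of either in the Npsr1 values was not tested. The small anterior difference in standard housing rested on 1 mouse for its sign, as it turned to 0.063 without C57BL/6J standard mouse 2, the one with 225 CPM.

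Housing differences were tested within each strain and portion. In the anterior amygdala, the mean of the enriched groups was below that of the standard groups in both strains, with log2 fold changes (enriched minus standard) of -0.74 (standard error 0.355, edgeR adjusted p = 0.789) in C57BL/6J and -0.37 (standard error 0.546, adjusted p = 1) in B6D2F1N mice. Neither passed the test, and single mice moved both. The C57BL/6J value ran from -1.07 without enriched mouse 3 to -0.44 without standard mouse 2, and the B6D2F1N value from -1.17 without enriched mouse 4 to -0.10 without enriched mouse 1. With 4 against 2 mice, an exact permutation test cannot go below p = 0.0667 in C57BL/6J.

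In the posterior amygdala of C57BL/6J mice, the log2 fold change was -1.49 with a standard error of 0.575, an unadjusted p of 0.0209 and an adjusted p of 0.452 in edgeR (DESeq2 0.164). The 2 housings met at a single point, with a lowest value of 2.44 CPM in standard and a highest of 2.45 CPM in enriched mice, and the exact two-sided permutation test gave p = 0.0571 (0.286 adjusted over 10 comparisons). Without C57BL/6J standard mouse 4, which had 9.20 CPM, the log2 fold change was -0.96. All 5 markers of oligodendrocytes, the myelin-forming cells, summed to 7847 to 12667 CPM in these standard libraries and to 17399 to 27093 CPM in the enriched ones, without overlap, and their part in the Npsr1 values was not tested. In the posterior amygdala of B6D2F1N mice, the log2 fold change was 0.04 (standard error 0.6, adjusted p = 0.999).

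Over all genes, the housing comparisons called 0% in C57BL/6J anterior libraries (edgeR, with 1418 genes at an unadjusted p under 0.05 and 100 genes called by DESeq2), 0.0163% in C57BL/6J posterior libraries (4 genes and 319 by DESeq2), 0% in B6D2F1N anterior libraries (1553 genes and 8 by DESeq2) and 0% in B6D2F1N posterior libraries (1716 genes and 14 by DESeq2). Whether the housing difference differed between the strains was tested as well, a comparison added after the values had been seen. The posterior difference was 1.53 higher in B6D2F1N than in C57BL/6J mice on the log2 scale (standard error 0.873, unadjusted p = 0.0927, edgeR adjusted p = 0.677), and the anterior one 0.37 higher (standard error 0.851, adjusted p = 1).

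With 1 housing effect fitted for both strains together, the steepness of the difference between the portions did not change detectably with housing. Over the 16 mice with both portions, the log2 fold change from anterior to posterior differed by -0.03 between enriched and standard mice, with a standard error of 0.49 (edgeR adjusted p = 1, with the mouse as a block and terms for strain). Over all genes, 0% were called in this test (888 at an unadjusted p under 0.05, and 1 gene called by DESeq2). Against this standard error, a difference of either sign remains possible.

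**Figure D4:**
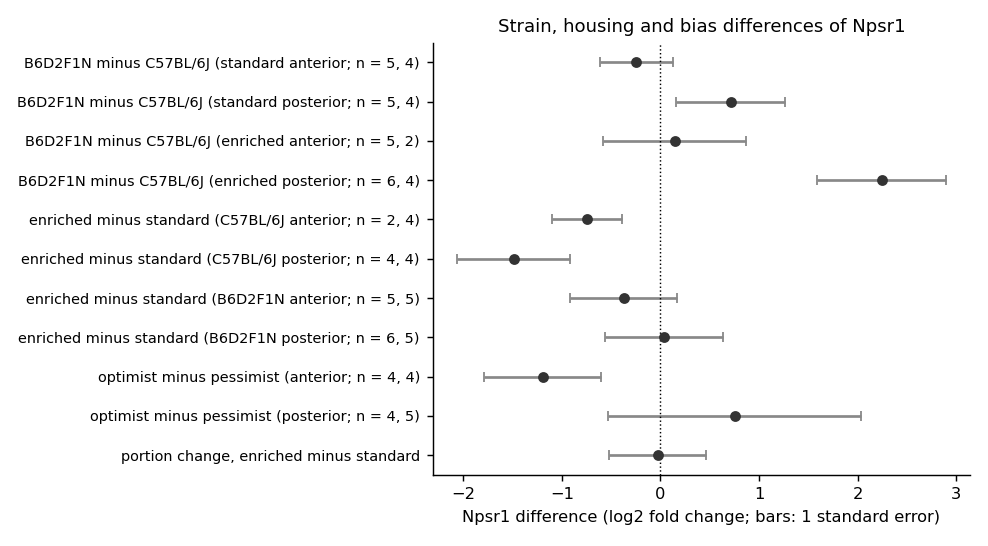
Log2 fold changes of Npsr1 from edgeR for the strain, housing and bias comparisons within each portion and for the change of the portion difference with housing, with bars of 1 standard error; numbers in brackets are mice in the first and the second group. The largest values are 2.24 for strain in the enriched posterior and -1.49 for housing in the C57BL/6J posterior amygdala.

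Optimists and pessimists of the judgment bias test were compared with terms for strain and housing. The 4 optimists had 99.7 ± 45.2 CPM in the anterior amygdala and the 4 pessimists with an anterior library 81.8 ± 79.1 CPM. Fitted with the terms, the log2 fold change (optimist minus pessimist) was -1.20 with a standard error of 0.593 (edgeR adjusted p = 0.876), and without them it was 0.29. All 4 optimists lived in standard housing and 1 pessimist did, B6D2F1N standard mouse 1, so that without this mouse bias and housing cannot be told apart and the model could not be fitted. In the posterior amygdala, the 4 optimists had 9.13 ± 4.96 CPM and the 5 pessimists 6.78 ± 8.28 CPM, and the fit gave 0.75 on the log2 scale (standard error 1.29, edgeR adjusted p = 1). It was 0.24 without C57BL/6J standard mouse 4 and 1.3 without B6D2F1N standard mouse 3. These comparisons called 0.00414% (anterior) and 0.00396% (posterior) of all genes in edgeR, 1 gene each, and 19 genes each in DESeq2.

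Whether mice with much Npsr1 in the anterior portion also had much in the posterior one was tested next, and no correlation passed the test. Across the 16 mice, after the means of the strains were removed, the log2 CPM of the portions had a Pearson's r of 0.339 (permutation p = 0.239, 0.359 after adjustment over 3 correlations) and a Spearman's rho of 0.312 (permutation p = 0.275). Without the 2 mice farthest from the median anterior level, r was 0.234. Within C57BL/6J mice (n = 6), r was 0.57 (exact permutation p = 0.236) and rho 0.6 (exact permutation p = 0.242), and within B6D2F1N mice (n = 10) r was 0.292 (permutation p = 0.409) and rho 0.176 (permutation p = 0.631).

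Which genes varied among the libraries of a portion as Npsr1 did was described by Pearson's r of log2 CPM with strain means removed, over genes with a mean of at least 1 CPM in the portion. These libraries share their tissue, processing and depth, and a correlation among 16 or 19 libraries carries no test here. In the anterior amygdala, 556 of 15658 genes (3.55%) had an r above 0.7 and 125 (0.798%) an r below -0.7. Among posterior libraries these were 63 (0.39%) and 87 (0.539%) of 16143 genes. The share of genes close to Npsr1 was larger in the portion in which it was abundant, which also had fewer libraries.

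The 6 genes most like Npsr1 in the anterior amygdala were Acvr1c (r = 0.962), Slc20a1 (0.949), Vegfd (0.94), Oprk1 (0.939), Chid1 (0.923) and Tmem35a (0.92). Acvr1c encodes an activin receptor of the TGF-beta superfamily, Slc20a1 a phosphate transporter, Vegfd a growth factor for lymphatic vessels and Tmem35a a chaperone of nicotinic acetylcholine receptors. The next gene had an r of 0.906. In each strain alone, r was 0.965 and 0.962 for Acvr1c, 0.838 and 0.967 for Slc20a1, and 0.621 and 0.979 for Oprk1 (6 C57BL/6J and 10 B6D2F1N libraries).

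The range of Acvr1c in the anterior libraries was 50.2 to 265 CPM, that of Oprk1 27.7 to 297 CPM and that of Vegfd 14.7 to 156 CPM. When the 2 libraries farthest from its median were left out, r was 0.95 for Acvr1c, 0.887 for Oprk1 and 0.826 for Tmem35a. Leaving out any 1 library kept r of the 6 genes between 0.861 and 0.974. When the means of the strain and housing groups were removed in place of strain means, 2 of the 6 highest and 1 of the 4 lowest genes stayed among the first, although r of the 6 highest was still 0.913 to 0.958. Rspo2, the marker of anterior basolateral neurons, had an r of 0.845, and Sstr2 and Sstr3 had 0.855 and 0.794, while the other neuropeptide receptors as a list had a median r of 0.274 over 32 genes, against -0.0427 over all genes. The 24 listed signaling genes had a median r of -0.00376, with 12 of them above 0.

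These 6 genes were picked for the highest r among anterior libraries, so that a lower r in other libraries follows from the choice. Posterior Npsr1 also rested on only 30 to 379 counts, and nothing about the portions is read from the drop. Among posterior libraries r was 0.127 for Acvr1c, 0.524 for Slc20a1, -0.364 for Vegfd, -0.18 for Oprk1, 0.211 for Chid1 and 0.513 for Tmem35a, and the median of the 6 was 0.169. In level, Vegfd and Oprk1 fell between the portions as Npsr1 did (log2 fold change of Vegfd -3.73 in C57BL/6J and -3.63 in B6D2F1N mice, edgeR adjusted p = 4.81e-08 and 4.06e-05), and Slc20a1 fell less (-1.02 and -1.03). Acvr1c, the gene closest to Npsr1 among anterior libraries, had a log2 fold change of 0.01 in C57BL/6J (edgeR adjusted p = 0.995) and -1.01 in B6D2F1N mice (adjusted p = 0.053).

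**Figure D5:**
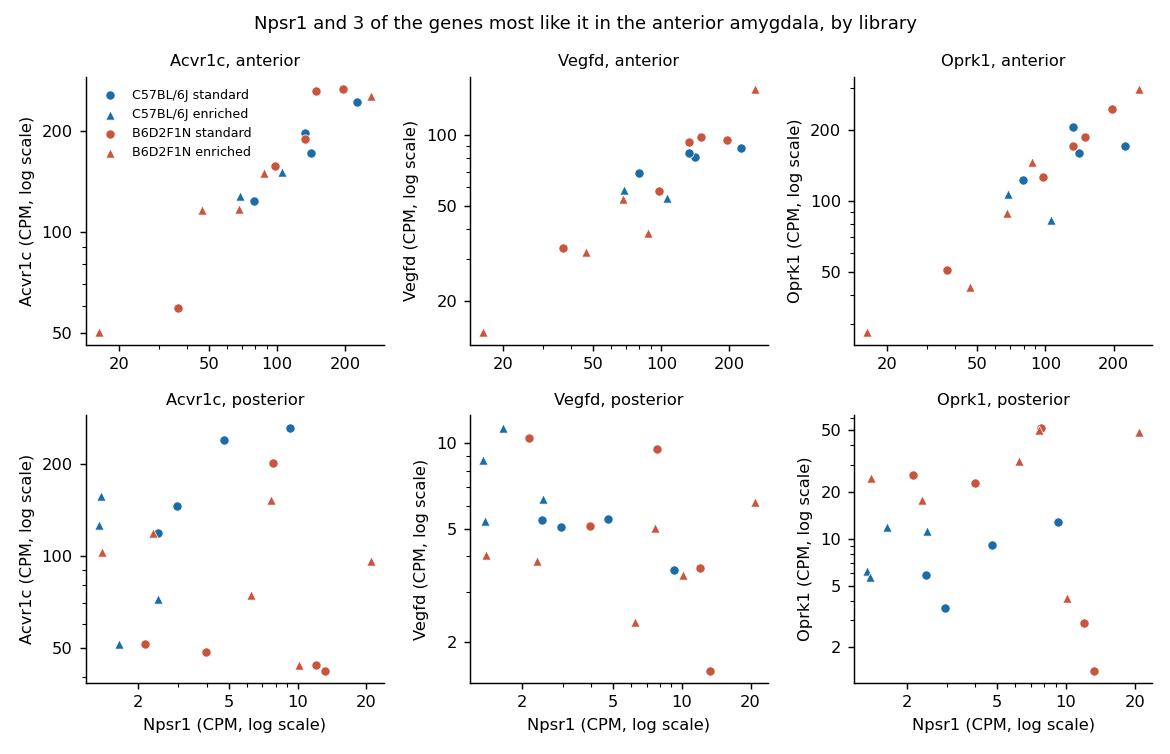
Npsr1 (horizontal) against Acvr1c, Vegfd and Oprk1 (vertical) in CPM on log axes, with the 16 anterior libraries in the upper and the 19 posterior libraries in the lower row; circles are standard housing, triangles the enriched environment, blue C57BL/6J and red B6D2F1N. The anterior points rise together (r = 0.962, 0.94 and 0.939), which is what the genes were picked for, and r among the posterior points is 0.127, -0.364 and -0.18. Of the genes most like Npsr1 in the anterior amygdala, those not shown had a higher posterior r (Slc20a1 0.524, Tmem35a 0.513 and Chid1 0.211).

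Genes that ran opposite to Npsr1 in the anterior amygdala were Rab31 (r = -0.863), a small GTPase of vesicle traffic, Puf60 (-0.857), a splicing factor, Mtmr2 (-0.842), a phosphoinositide phosphatase, and Ccdc184 (-0.837). All 4 also had a negative r in the posterior amygdala, from -0.684 to -0.328, where the median over all genes was -0.0425. The portions have mice in common, so this is not an independent check. The 5 markers of oligodendrocytes had a median r of -0.63 in the anterior (-0.675 to -0.543) and -0.643 in the posterior amygdala (-0.746 to -0.378). The 4 microglial markers had a median of 0.603 (anterior) and 0.0171 (posterior), and the 5 markers of excitatory neurons 0.299 and -0.291. The 3 choroid plexus markers had medians of -0.539 and -0.139. The part of these cells in the variation of Npsr1 was not tested.

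In the posterior amygdala, where Npsr1 rested on 30 to 379 counts, the 6 closest genes were C730034F03Rik (r = 0.822), Gm15535 (0.802), Ehbp1l1 (0.793), Fcgr2b (0.785), Zfp131 (0.783) and Tnip2 (0.78). Fcgr2b is an inhibitory receptor for antibodies, Zfp131 a zinc finger protein and Tnip2 a regulator of NF-kappaB signaling. They were picked by their posterior r, so that a lower r in other libraries follows from the choice. In the anterior amygdala, 3 of the 6 kept a positive r, up to 0.494 for Ehbp1l1. The most opposite genes were Bak1 (-0.838), which promotes cell death, Tnnt1 (-0.825), a troponin, Mid1ip1 (-0.825), a regulator of lipid synthesis, and Tom1l2 (-0.808). All 4 were negative in the anterior amygdala as well, from -0.704 to -0.24, against a median of -0.0427 over all genes there. The 2 sets of most similar genes shared no member, and the sixth posterior gene at 0.78 was followed by one at 0.775, so that this list has no clear end. With the means of the strain and housing groups removed, 2 of the 6 and 2 of the 4 genes stayed among the first.

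Depth and complexity of the libraries also moved with Npsr1, most of all the number of genes detected in the posterior amygdala. After removal of strain means, its log2 CPM had an r of 0.36 with the log2 of total gene counts and -0.342 with the number of genes detected over the 16 anterior libraries. Over the 19 posterior libraries these were -0.185 and -0.59. The part of library complexity in the posterior list was not tested.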

How the data were processed

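RNA of microdissected cells was amplified and made into libraries with a low-input kit, and single reads of 72 bases were sequenced. As the authors describe, reads were trimmed with Trimmomatic 0.38, aligned to GRCm38 with HISAT2 2.1.0 and counted per gene with HTSeq 0.11.2, and the deposited files hold raw read counts per gene. The annotation release and the strand setting are not given in the sources used here. Ensembl identifiers were named from GENCODE M21 (52403 of 52636 matched). Samples were grouped by their labels. The rows without a gene were left out.

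Counts were tested with edgeR 4.0.16 (R 4.3.3, TMM, quasi-likelihood F test) on genes with at least 10 counts in total. P-values were adjusted by Benjamini-Hochberg over all genes tested, with calls made up to an adjusted p of 0.05. Log2 CPM used a prior count of 2 in the correlations. The log2 differences per mouse, the differences of mean log2 CPM and the exact permutation tests between groups used no prior count. Both libraries of a mouse were paired by the mouse number, as they come from the same animal. The code was tested on simulated data. DESeq2 1.42.0, its size factors, no filter, other covariates, no pairing, single mice left out and exact permutation tests were the alternatives.

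Npsr1, the gene lists and the comparisons were chosen with earlier results of these data known. Named genes were the relatives of Npsr1, its overlapping genes, up to 6 genes of the signaling and receptor lists with the smallest p among those called in both strains, the 3 receptors nearest in anterior level per length, and the 6 highest and 4 lowest correlations per portion. Plcb4, Adcy8 and the markers with values were added after their values had been seen. Of 595 pairs of libraries, 0 held identical counts. Each mouse is 1 replicate.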

Additional observations from a re-analysis of the deposited data

How the results depend on the processing

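The direction of the Npsr1 difference between portions was the same under every alternative run. This is a description that adds no support, since the difference chose the gene and the refits use the same libraries. Without the pairing of both libraries of a mouse (no replicate block), its log2 fold change was -5.11 in C57BL/6J and -3.79 in B6D2F1N mice, and leaving out 1 mouse at a time gave -5.62 to -5.12 and -4.10 to -3.60. Of 174 refits of the 11 tested Npsr1 comparisons, 1 passed the threshold, DESeq2 for strain in the enriched posterior amygdala (log2 fold change 2.24, adjusted p = 0.0192), and 22 had the opposite sign of a value that had not passed. Where a sign turned, the cause was not tested. Strain in the enriched anterior amygdala was -0.10 over both housings with a housing term, -0.39 as the difference of mean log2 CPM, and -0.68 to 0.46 with 1 mouse left out (-0.68 without B6D2F1N enriched mouse 4). Strain in the standard anterior amygdala was -0.47 (without B6D2F1N standard mouse 1) to 0.063 (without C57BL/6J standard mouse 2) with 1 mouse left out. Housing in the B6D2F1N posterior amygdala was -0.60 over both strains with a strain term, -0.17 as the difference of mean log2 CPM, and -0.52 (without B6D2F1N enriched mouse 2) to 0.31. Bias in the anterior amygdala was 0.29 without terms for strain and housing and 0.66 as the difference of mean log2 CPM. The change of the portion difference with housing was 0.011 without the replicate block and -0.46 to 0.31 with 1 mouse left out. Over all genes, DESeq2 called 1884 genes between portions in C57BL/6J and 2679 in B6D2F1N mice, against 937 and 1110 in edgeR, and leaving out 1 C57BL/6J mouse gave 602 (without standard mouse 4) to 1070. Over the receptor and signaling lists, Gm47674, Rspo2 and the excitatory neuron markers, 43 calls between portions in a strain were refitted, of which 31 were kept in every alternative, 12 were lost in at least 1, and 0 changed sign. The lost calls were those of Adcy8, Galr1, Npy2r and Npy5r in B6D2F1N, of Cckbr, Plcb4, Sstr1 and Sstr3 in C57BL/6J, and of Neurod6 and Vipr1 in both. Markers of glia, choroid plexus and other cells were not refitted. Fits that leave 1 C57BL/6J enriched anterior library assume that it varies like the others. The bias comparison without B6D2F1N standard mouse 1 could not be fitted. With 30 to 379 posterior counts and 2 to 6 mice a group, small differences of Npsr1 were not detectable.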
